A study of Mus musculus with 2 samples.

Results

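The RNA-binding proteins encoded by Elavl2, Elavl3, Elavl4, Nova1, Nova2, Rbfox1, Rbfox2, Rbfox3, Ptbp1 and Ptbp2 regulate splicing and mRNA stability as neurons form, and the H2AZ peaks at these 10 genes are described here, out of 21774 protein-coding genes. The genes were chosen by name, and all 10 were found in the RefSeq gene table of the mouse build GRCm38.p6. The data came from chromatin immunoprecipitation with sequencing (ChIP-seq) of H2AZ, a variant that takes the place of histone H2A in some nucleosomes, in neural progenitor cells. The cells came from brains of mouse embryos of the strain C57BL/6 at day 13 of development (E13). There was 1 library made with the H2AZ antibody and 1 input library without an antibody, of the same strain, stage and cells. A single list of peaks was deposited, so no value below has a replicate check, read depth is unknown and nothing was tested between ChIP and input. Of its 21592 peaks, 21546 were used. Each peak has a position and the authors' score, and what this score measures is not stated; scores serve only to describe and rank peaks within this list, where they ran between 3.72 and 38.8 with a median of 11.9.

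The Elavl (Hu) proteins bind U-rich and AU-rich elements, and Elavl2, Elavl3 and Elavl4 are found mainly in neurons. Nova1 and Nova2 are KH-domain proteins that bind clustered short motifs in pre-mRNA and set the choice of alternative exons, many of them in genes of the synapse. Rbfox proteins bind GCAUG-containing elements near alternative exons, and Rbfox3 is the antigen known as NeuN, a marker of mature neurons. Ptbp1 binds pyrimidine-rich tracts and holds back neural exons in progenitors and in cells outside the nervous system. One of the exons it acts on lies in the transcript of its paralogue Ptbp2, whose protein rises when Ptbp1 falls during neuronal differentiation. H2AZ is known to occupy nucleosomes beside transcription start sites, most of all at CpG-rich promoters.

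The starts of these genes are shown first because 11 of the 22 peaks at and inside the genes lay within 1 kb of one; 8 did not, and 3 belong to Rbfox2, for which no start is listed. The RefSeq promoter table gave 13 groups of starts for 9 of the genes (starts of a gene 1 kb or less apart were grouped), and none for Rbfox2. Each sequence runs 5′ to 3′ and covers the 250 bases before and 50 bases after the first start of its group, in GRCm38.p6, with each CG dinucleotide in capitals. The Elavl4 pair contrasts the outer, CpG-rich start with the internal, CpG-poor start of the same gene, both with a peak. After these comes the internal Elavl2 start under the widest peak of the set.
Elavl4 outer start (chr4:110351862-110352161, minus strand): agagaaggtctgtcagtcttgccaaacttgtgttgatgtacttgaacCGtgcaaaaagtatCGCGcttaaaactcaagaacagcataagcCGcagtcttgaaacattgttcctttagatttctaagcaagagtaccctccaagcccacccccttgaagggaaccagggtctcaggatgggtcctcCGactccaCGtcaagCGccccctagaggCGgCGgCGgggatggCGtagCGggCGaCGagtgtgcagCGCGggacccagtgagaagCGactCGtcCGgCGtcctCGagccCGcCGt
Elavl4 internal start (chr4:110287478-110287777, minus strand): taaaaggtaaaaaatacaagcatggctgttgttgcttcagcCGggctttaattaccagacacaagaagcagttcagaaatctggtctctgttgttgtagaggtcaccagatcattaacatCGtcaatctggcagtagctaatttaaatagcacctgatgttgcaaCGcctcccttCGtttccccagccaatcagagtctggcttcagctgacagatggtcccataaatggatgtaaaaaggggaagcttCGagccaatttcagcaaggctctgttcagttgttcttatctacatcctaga
Elavl2 first internal start (chr4:91376447-91376746, minus strand): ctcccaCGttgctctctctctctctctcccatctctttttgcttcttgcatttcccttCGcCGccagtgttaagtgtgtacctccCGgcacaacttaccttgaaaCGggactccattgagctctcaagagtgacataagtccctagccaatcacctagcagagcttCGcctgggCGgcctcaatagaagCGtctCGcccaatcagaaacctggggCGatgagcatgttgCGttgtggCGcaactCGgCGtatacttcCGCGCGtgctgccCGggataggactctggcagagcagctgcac
For Rbfox1 and Rbfox3, the starts with and without a peak were all CpG-poor.
Rbfox1 outer start, with a peak (chr16:5884543-5884842, plus strand): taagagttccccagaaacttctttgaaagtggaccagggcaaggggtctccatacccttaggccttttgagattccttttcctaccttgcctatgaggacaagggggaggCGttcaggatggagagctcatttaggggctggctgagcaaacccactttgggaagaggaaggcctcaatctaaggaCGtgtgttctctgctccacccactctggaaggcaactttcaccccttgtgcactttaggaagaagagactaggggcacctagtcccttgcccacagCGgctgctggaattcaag
Rbfox1 internal start, without a listed peak (chr16:7069585-7069884, plus strand): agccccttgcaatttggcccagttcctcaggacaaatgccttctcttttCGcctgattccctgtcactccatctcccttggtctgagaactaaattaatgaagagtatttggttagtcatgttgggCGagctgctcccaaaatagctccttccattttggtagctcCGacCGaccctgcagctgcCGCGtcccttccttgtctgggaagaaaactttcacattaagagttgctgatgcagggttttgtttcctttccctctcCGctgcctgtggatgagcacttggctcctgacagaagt
Rbfox3 start, without a listed peak (chr11:118760992-118761291, minus strand): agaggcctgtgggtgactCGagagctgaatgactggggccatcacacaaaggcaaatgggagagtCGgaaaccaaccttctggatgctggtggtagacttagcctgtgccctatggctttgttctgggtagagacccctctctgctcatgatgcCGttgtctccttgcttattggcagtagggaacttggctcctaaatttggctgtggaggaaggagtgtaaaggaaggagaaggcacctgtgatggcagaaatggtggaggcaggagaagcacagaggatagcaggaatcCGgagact
The Nova2 window is pyrimidine-rich, and its peak began after the start. Ptbp1 and Ptbp2 both have CpG-rich windows with peaks of low score.
Nova2 start (chr7:18925638-18925937, plus strand): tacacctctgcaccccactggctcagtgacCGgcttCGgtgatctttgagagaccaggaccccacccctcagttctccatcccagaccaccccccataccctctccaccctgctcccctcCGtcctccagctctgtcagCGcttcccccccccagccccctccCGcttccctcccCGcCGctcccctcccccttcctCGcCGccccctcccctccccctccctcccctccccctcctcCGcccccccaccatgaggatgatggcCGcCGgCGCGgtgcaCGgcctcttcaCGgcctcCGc
Ptbp1 start (chr10:79854182-79854481, plus strand): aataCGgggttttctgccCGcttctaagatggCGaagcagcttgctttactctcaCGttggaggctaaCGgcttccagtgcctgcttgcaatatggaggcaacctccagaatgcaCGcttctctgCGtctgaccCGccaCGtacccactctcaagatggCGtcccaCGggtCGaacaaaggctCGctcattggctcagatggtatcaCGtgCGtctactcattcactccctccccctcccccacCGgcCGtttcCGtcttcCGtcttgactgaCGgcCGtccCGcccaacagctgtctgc
Ptbp2 start (chr3:119783339-119783638, minus strand): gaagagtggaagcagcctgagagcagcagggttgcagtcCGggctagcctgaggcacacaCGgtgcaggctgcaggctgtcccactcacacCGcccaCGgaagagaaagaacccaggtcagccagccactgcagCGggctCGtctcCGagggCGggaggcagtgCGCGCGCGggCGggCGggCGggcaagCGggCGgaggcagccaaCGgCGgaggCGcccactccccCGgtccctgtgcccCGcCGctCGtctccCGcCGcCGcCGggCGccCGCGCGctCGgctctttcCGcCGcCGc

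A peak was counted at a gene end if any base of it fell within 1 kb of that end, to either side. All genes but Rbfox3 had such a peak (9 of 10), where 55.4% of protein-coding genes had one (95% exact binomial interval 54.7 to 56.0%). That interval is for the share over all genes. None was computed for the 9 of 10, and the difference was not tested. The promoter table gave a strand for 9 of the 10 genes, and 8 of these, again all but Rbfox3, had the peak at the 5′ end, against 53.1% of protein-coding genes with a strand. None of the 9 had a listed peak at its 3′ end, where 7.29% of genes did. None of the 9 end peaks lay at an end of another protein-coding gene. The 1 kb limit separated Ptbp2 and Rbfox2, whose peaks stopped 0.38 and 0.463 kb short of the outermost gene end, from Rbfox3, whose nearest peak stopped 1.267 kb short. With the peak midpoint required to lie inside the window, 7 of the 10 genes had an end peak, without Ptbp2 and Rbfox2. The share over all genes was not computed for that rule.

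**Figure D1:**
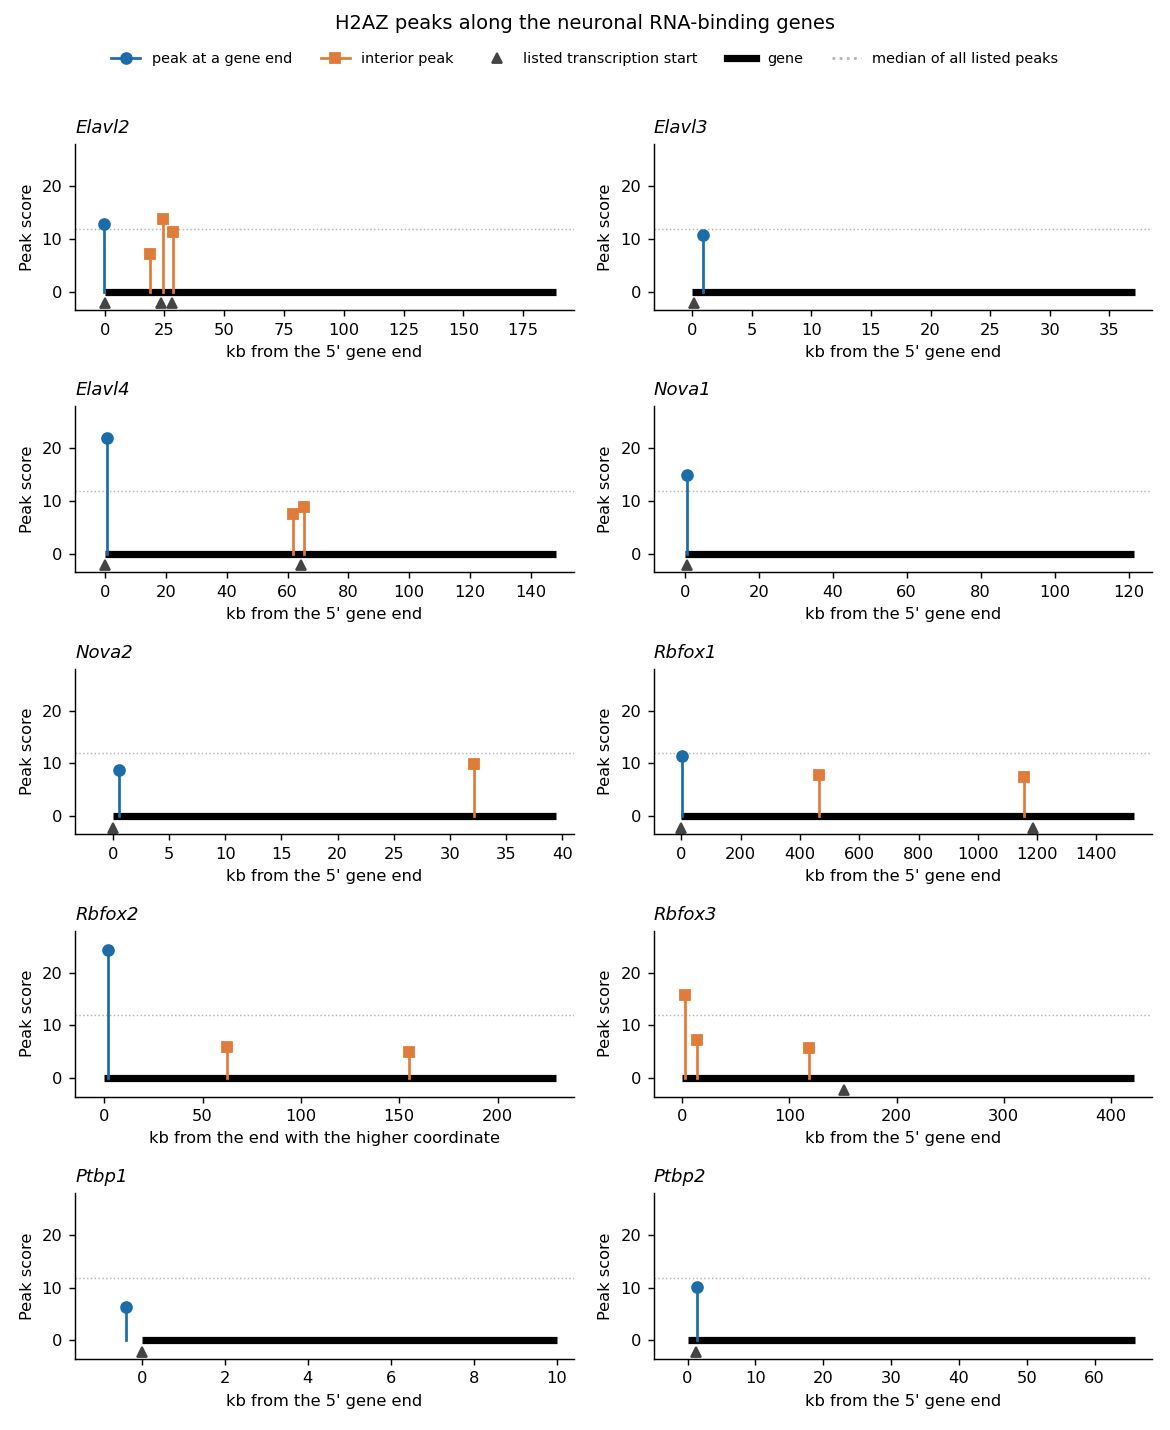
Position and score of every listed H2AZ peak at or inside the 10 genes; the horizontal axis is the distance in kb of the peak midpoint from the 5′ gene end (for Rbfox2, from the end with the higher coordinate), the vertical axis the authors' score, and triangles are the starts of the promoter table. Elavl2 has peaks at 3 groups of starts and Elavl4 at 2, while the internal start of Rbfox1 and the start of Rbfox3 have none.

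End-peak scores were mostly in the lower part of the range for all genes. The median over the 9 genes was 11.3, against 17.1 over the 12060 protein-coding genes with an end peak. Rbfox2 (24.4) and Elavl4 (22.1) lay above that median and the other 7 lay below it. At or above the median score of the whole list, 11.9, were Elavl2, Elavl4, Nova1 and Rbfox2 (4 of 10 genes), where 44.4% of protein-coding genes had an end peak that high, so this share was near the background. The width of the end peak had a median of 2410 bp over the 9 genes and 2207 bp over all genes with an end peak.

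**Figure D2:**
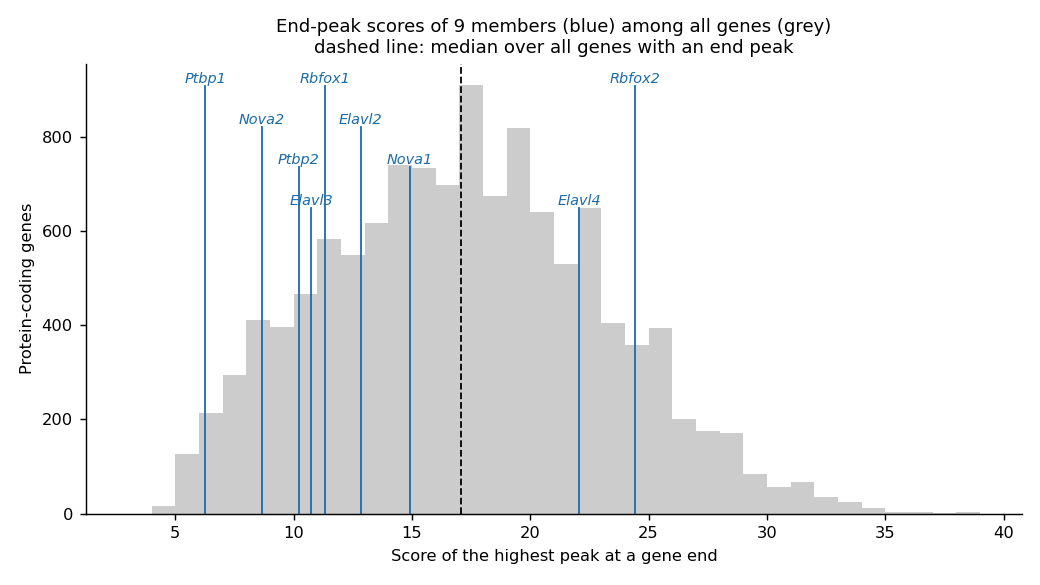
Score of the highest end peak (horizontal axis) for the 9 genes with one, as blue lines, over the histogram of the same score for 12060 protein-coding genes in grey (vertical axis, genes per unit of score). Of the 9 lines 7 lie left of the dashed median of 17.1, and Elavl4 and Rbfox2 lie right of it.

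Within the Elavl family, which stabilises mRNAs and regulates splicing and polyadenylation in neurons, all 3 genes had a 5′ peak. Elavl4, the gene of HuD, had the highest score (22.1, chromosome 4, 110350250 to 110352712, 2463 bp), above 78.1% of genes with an end peak. Elavl2, the gene of HuB, had an end peak of 12.8 (chromosome 4, 91399605 to 91401258), above 24.1% of such genes. Elavl3, the gene of HuC, had one of 10.7 (chromosome 9, 22050058 to 22052467), above 14.6%. The order Elavl4, Elavl2, Elavl3 is a description of 1 library, with no error by which to tell Elavl2 from Elavl3. Elavl3 was the one of the 3 with no interior peak, and the numbers of the peaks before, at and after it were consecutive.

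Elavl2 had more peaks than any other of the 10 genes, 4 in all, and a peak covered each of its 3 groups of starts. An interior peak is one that touches the gene and neither end window. The first internal group, 23.6 kb into the gene, lay in a peak of 13.7 (chromosome 4, 91374004 to 91377521), which was 3518 bp wide, wider than 98.4% of all peaks. The second, 28.04 kb in, lay in a peak of 11.3 (91370583 to 91372647). These peaks were 1356 bp apart, and a microRNA gene, Mir6402, had an end within 1 kb of both. The fourth peak, of 7.16 (91380260 to 91382094), was 3764 bp upstream of the first internal start and touched no listed start.

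Elavl4 showed the same layout with a larger contrast in score. Its internal starts, 64.4 kb into the gene, lay in a peak of 8.95 (chromosome 4, 110285406 to 110287609), against 22.1 for the peak at the outer start. A further peak of 7.46 (110289502 to 110290927) lay 1892 bp upstream of it. In both genes a pair of neighbouring interior peaks had 1 member at a start and a lower one just upstream. Of the 3 genes with 2 or more groups of starts, Elavl2 and Elavl4 had a peak at every group and Rbfox1 did not; of all 1499 protein-coding genes with 2 or more groups, 27.4% had a peak at every one, and of those with 3 or more, as in Elavl2, 11.4% did. Of the 6 groups of starts over 1 kb inside the 5′ end of their gene, 4 had a peak (2 in Elavl2, 1 in Elavl4 and that of Ptbp2), where 46.1% of such groups over all genes did.

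Both Nova genes had a 5′ peak, of contrasting shape. Nova1 had a peak of 14.9 (chromosome 12, 46817343 to 46820586) that was 3244 bp wide, wider than 97.1% of all peaks. Nova2 had a peak of 8.65 (chromosome 7, 18925955 to 18926925) that was 971 bp wide, and 0.399% of all peaks were narrower. The Nova2 peak was also the single one of the 8 that did not contain its listed start, beginning 67 bp downstream of it. In the printed window this listed start is the first base of an ATG. Whether transcription starts there was not tested, so the 67 bp hold for the listed position only. Nova1, 122 kb long, held no listed interior peak. Nova2, 39.4 kb long, held one of 9.84 (18957091 to 18958912) at 81.4% of its length, within 1 kb of an end of the long non-coding RNA gene Gm38952, so the interior peak of Nova2 scored above its end peak.

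The highest peak counted as an end peak at Rbfox1 and Rbfox2 and as an interior peak at Rbfox3. Rbfox2, which among the 3 is the one also expressed widely outside neurons, had the highest end-peak score of all 10 genes (24.4, chromosome 15, 77305274 to 77307971), above 87.7% of genes with an end peak and at rank 1431 of the list. Rbfox1, a gene of 1528 kb, had an end peak of 11.3 (chromosome 16, 5884573 to 5886193) at its outer start. Rbfox3 had no peak within 1 kb of an end, and its highest peak, of 15.8, lay 2.3 kb inside the 5′ end at the midpoint (chromosome 11, 118908263 to 118910330). With a window of 2 kb it counts as an end peak. The midpoint of the Rbfox2 end peak lay 1.81 kb inside the end with the higher coordinate. The Rbfox2 and Rbfox3 peaks thus lay at similar distances from the gene end, on either side of the 1 kb limit for their nearer edge.

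At the internal start of Rbfox1, 1185 kb into the gene, no peak was listed, and the nearest was 29.2 kb away. Nor was one listed at the Rbfox3 start of the promoter table, which lies 151 kb inside the outermost gene end; the nearest was 31.4 kb away. Rbfox1 held 2 interior peaks, of 7.76 (6347985 to 6349942) and 7.46 (7038448 to 7040670). Rbfox2 held 2 as well, of 5.89 (77245209 to 77246656) and 4.91 (77152728 to 77154015), the lowest score of the 22 peaks. Rbfox3 held 3, namely the one near its 5′ end, one of 7.16 (118896858 to 118898078) and one of 5.67 (118792449 to 118794489) within 1 kb of an end of the long non-coding RNA gene Gm11750.

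The Ptbp genes, a progenitor repressor of neural exons and its neuronal paralogue, both had low end-peak scores and no interior peak. Ptbp2 had a peak of 10.2 (chromosome 3, 119782102 to 119784267), above 12.96% of genes with an end peak. Ptbp1 had a peak of 6.26 (chromosome 10, 79852681 to 79855418), the lowest end-peak score of the 9 genes, above 1.27% of genes with an end peak. The Ptbp1 peak was nevertheless 2738 bp wide, wider than 90.8% of all peaks, and it lay within 1 kb of an end of the long non-coding RNA gene E130317F20Rik. The labelled cells are progenitors, in which Ptbp1 is known to be expressed; the peak list holds no expression values, and a score is not a level of transcription.

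The midpoint of the peak lay downstream of the start at 5 of the 8 genes with a 5′ peak and a listed start. It was downstream by 760.5 bp at Elavl3, 590 bp at Rbfox1, 552 bp at Nova2, 430 bp at Elavl4 and 203.5 bp at Ptbp2. It was upstream at Elavl2, Ptbp1 and Nova1, at offsets of -447.5, -382.5 and -197.5 bp. The Ptbp2 start lies 1.259 kb inside the 5′ end of its gene. For the other 7 genes, whose start lies within 1 kb of that end, the median offset was 430 bp, against 53.5 bp (quartiles -103.5 and 223 bp) over 8589 starts of protein-coding genes within 1 kb of the 5′ end. The median over all these starts was positive, so the midpoint lay downstream at most of them too. Of the 8 peaks 7 contained the start, all but that of Nova2. The share of all starts that lie inside their peak was not computed.

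Interior peaks were found in 6 of the 10 genes, 13 in all, where 13.8% of protein-coding genes held one. Elavl2, Elavl4, Nova2, Rbfox1 and Rbfox2 had both an end and an interior peak (5 of 10), as did 8.11% of all protein-coding genes. Most of these genes are long, and among genes of 100 to 500 kb 40.7% held an interior peak, among them Elavl2, Elavl4, Rbfox2 and Rbfox3 but not Nova1. In the class of 500 kb or more, to which Rbfox1 belongs, the share was 63.0%. It was 24.6% from 50 to 100 kb, the class of Ptbp2, which held none, and 8.06% under 50 kb, where Nova2 held one and Elavl3 and Ptbp1 did not. Per 100 kb, the 10 genes together held 0.466 interior peaks, against 0.430 over all protein-coding genes. That pooled density rests on Rbfox1, which makes up 1528 of the 2790 kb and holds 2 of the 13 peaks; without it the other 9 genes held 11 peaks, or 0.872 per 100 kb. Within length classes, the 5 genes of 100 to 500 kb held 10 peaks, or 0.901 per 100 kb, against 0.392 over all genes of that class, while Rbfox1 held 0.131 against 0.195 over genes of 500 kb or more. These densities were not tested. By gene the density ran from 0.131 in Rbfox1 through 0.711 in Rbfox3, 0.872 in Rbfox2, 1.35 in Elavl4 and 1.59 in Elavl2 to 2.54 in Nova2, which rests on 1 peak.

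**Figure D3:**
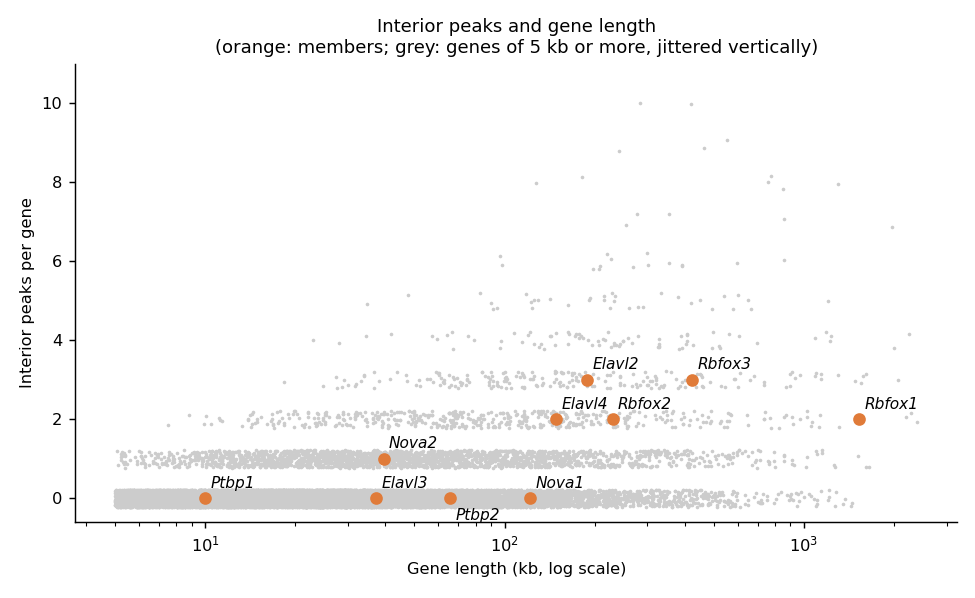
Number of interior peaks per gene (vertical axis) against gene length in kb on a log axis, for the 10 genes in orange and for protein-coding genes of 5 kb or more in grey, spread vertically for sight. Elavl2 and Rbfox3 hold 3 interior peaks each, and Elavl3, Nova1, Ptbp1 and Ptbp2 hold none.

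Interior scores were low. Of the 13 interior peaks 11 scored below the list median of 11.9, the exceptions being the peaks of 13.7 in Elavl2 and 15.8 in Rbfox3. The median of the 13 was 7.46, against 8.95 over 4105 interior peaks of protein-coding genes. The 8.95 is also below the list median, so most interior peaks of all genes scored below it too. Of the 11 whose gene had starts in the promoter table, 3 lay within 1 kb of a listed start, in Elavl2 and Elavl4, where 32.9% of 3449 interior peaks did. The 3 had a median score of 11.3 and the other 8 one of 7.46, against 14.0 and 8.05 for the same classes over all genes.

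The starts of the 9 genes covered a wide range of CpG content. Their 300-base windows held a median of 17 CG dinucleotides, against 12 over 19341 groups of starts of protein-coding genes, and of the 13 windows 11 had a peak within 1 kb, where 53.0% of all groups did. With 10 or more CG dinucleotides, all 9 windows had a peak (Elavl2 at 3 groups, Elavl3, the outer Elavl4 start, Nova1, Nova2, Ptbp1 and Ptbp2); over all genes 79.0% had one with 10 to 19, 84.9% with 20 to 29 and 81.1% with 30 or more. Below 10, the outer Rbfox1 start (3 CG dinucleotides) and the internal Elavl4 start (5) had a peak, while Rbfox3 (4) and the internal Rbfox1 start (7) had none. Over all genes 7.84% of windows with 0 to 4 and 37.9% with 5 to 9 had one.

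The starts richest in CpG did not have the highest scores. Ptbp2 had the most CG dinucleotides, 36, and a score of 10.2, and Ptbp1 had 22 and a score of 6.26, while the outer Elavl4 start had 23 and a score of 22.1. Over all genes the median score ran from 12.5 in windows with 0 to 4 to 18.8 in those with 30 or more. The outer Rbfox1 start, with 3, and the second internal Elavl2 start, with 25, had peaks of the same score, 11.3. These are descriptions over 13 windows that share genes, with no test.

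**Figure D4:**
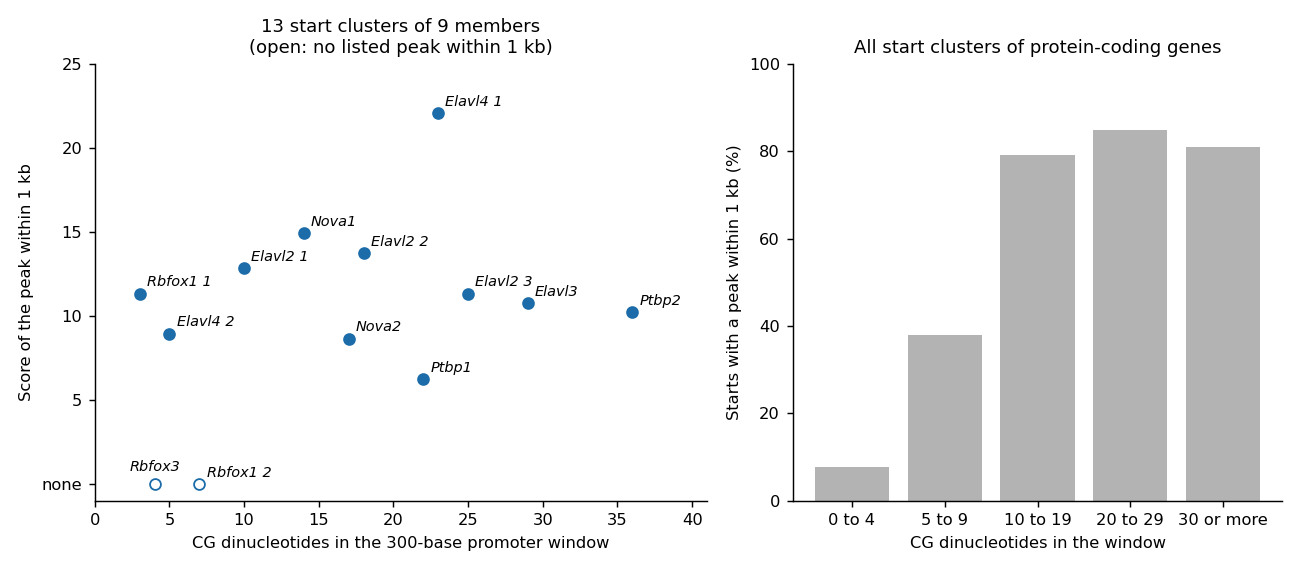
Left, CG dinucleotides in the promoter window (horizontal axis) against the score of the highest peak within 1 kb (vertical axis) for 13 groups of starts, numbered from the 5′ end where a gene has several; open circles have no listed peak. Right, share of all starts with a peak, by CG class; the 9 windows of the left panel with 10 or more all have a peak.

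Short motifs were searched in the same windows on both strands. CAGCTG, an E-box of the kind bound by proneural and other bHLH factors, was in 7 of the 13 windows, against 15.6% of all 19341. The windows were those of Elavl2 (the outer and first internal starts), Elavl3, the internal starts of Elavl4 and Rbfox1, Nova1 and Ptbp1. GGGCGG, the GC box, was in 6 of 13 (44.9% of all), and CCAAT in 6 of 13 (38.7% of all). TATAAA was found at Elavl3 alone (13.2% of all) and CACGTG at Ptbp1 alone (7.72% of all). TTCAGCACC, a part of the site of the neuronal gene repressor REST, was in 0 of 13 windows, and in 0.414% of all. TGACGTCA, the CRE, was in 0 of 13 (2.22% of all), and so was the palindromic NRF1 site (1.26% of all). Letters in a window are not shown to be sites, and windows of 1 gene are not independent.

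Other RNA-binding genes gave a comparison by count. Of 74 genes in 5 lists, 56 had an end peak (75.7%), between the 9 of 10 above and the 55.4% of all protein-coding genes. The lists were chosen with earlier results of these data known and were not tested. Among other neural RNA-binding and splicing regulators 12 of 17 had one, with a median score of 14.0; Khdrbs2 (17.1), Khdrbs3 (15.8), Celf6 (14.9) and Qk (14.3), the gene of quaking, were highest, and Celf1, Celf3 and Khdrbs1 had none. Interior peaks of high score stood in Mbnl1 (30.1), which had no end peak, Celf2 (21.2) and Srrm3 (18.8). Of the paralogues expressed outside neurons, Elavl1, the gene of HuR, had an end peak of 15.2, and Ptbp3 had no peak at an end or inside.

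SR proteins and SR-like regulators of splicing had an end peak in 13 of 15 genes (median 14.6). Srrm2 (23.3), Srsf6 (19.7), Srsf9 (18.2) and Srsf4 and Srsf12 (17.3 each) were highest, and Srsf1 and Srsf3 had none. Genes of hnRNPs, abundant nuclear RNA-binding proteins, had one in 16 of 22 cases, with a median of 10.96 that was close to the 11.3 of the neuronal genes. Hnrnph1 and Hnrnpr (19.7 each), Hnrnpll (17.0) and Hnrnpd and Hnrnpdl (16.7 each) were highest, and Hnrnpa1, Hnrnpa3 and Hnrnpf had none. Inside Hnrnpf, however, lay 2 interior peaks, the higher of 14.9. Cytoplasmic regulators of translation and transport had one in 14 of 18 cases (median 15.8), led by Stau1 (23.3), Fxr2 (22.7), Fxr1 (19.7) and Cpeb1 (18.2), and Cpeb2, Igf2bp2 and Lin28b had none. Cpeb1 and Cpeb3 each held a high interior peak (19.7 and 19.6), and Lin28b held one of 6.86. For these lists the score is that of the highest peak at either end, which can lie at the end of a neighbouring gene.

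**Figure D5:**
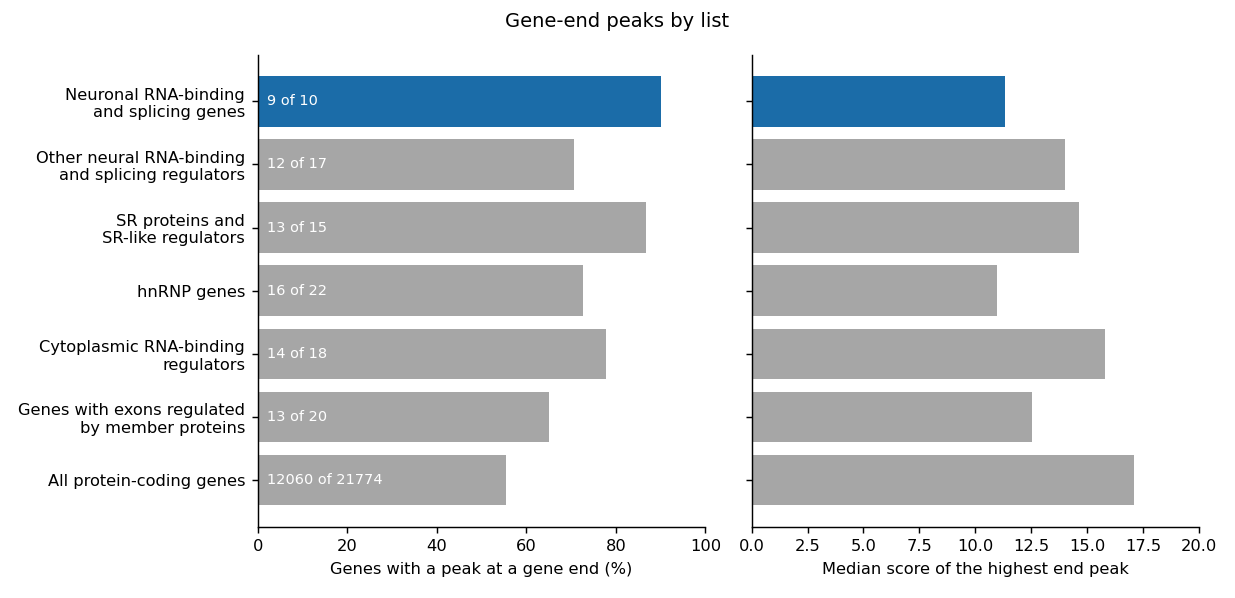
Share of genes with a peak at a gene end (left, percent, with counts) and median score of the highest such peak (right), for the 10 neuronal genes in blue and for other lists and all protein-coding genes in grey. The neuronal genes have a share of 9 of 10 and a median score of 11.3 beside 17.1 over all genes; the REST genes (5 of 5), the progenitor markers (9 of 10), the other marker lists and the 2 paralogues outside neurons are not drawn.

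Among 20 genes with exons regulated by the proteins encoded here, 13 had an end peak (65%), where 55.4% of all protein-coding genes did. Their median score was 12.5, against 17.1 over all genes with an end peak. Nin (26.9), Grin1 (19.99), Nf1 (17.9) and Src (15.2), whose neural exon is held back by Ptbp1, were highest. Clta, Dlg4 and Glra2 had none, although Clta held an interior peak of 11.4, and Dab1 held one of 22.1. REST, which represses neuronal genes outside neurons, and genes of its corepressor and associated phosphatases all had an end peak (5 of 5): Ctdsp1 (24.5), Rcor1 (22.7), Rest (18.5), Ctdspl (15.8) and Ctdsp2 (8.35). No test was made of these 5 genes against the 55.4% of all genes.

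End peaks were also counted at markers of cell types, beside the 55.4% of all protein-coding genes that had one. They were present at 9 of 10 progenitor markers (not at Sox2) and 5 of 8 neuronal markers. Of 11 markers of vessels, blood, microglia and connective tissue, 3 had one. The scores of these marker lists had another order. The median end score was 7.46 at progenitor markers, and 10.7 both at neuronal markers and at markers of the other cells. Each was below the 17.1 over all genes. A peak at a gene does not show that it is expressed, so these counts cannot check the labelled cell type. The part that other cells had in the peaks of the 10 genes was not tested.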

How the data were processed

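The authors' deposited list gives a chromosome, a start counted from 0, an end, a peak name with the caller's name MACS and a score; starts are printed counted from 1. Per the submitters' processing notes CASAVA 1.4, Bowtie2 2, FastQC and the build mm9 were used; for the caller's settings and the role of the input, no statement was found (not given in the sources used here). Positions were read as GRCm38: with the gene positions of GRCm38.p6, 55.4% of protein-coding genes had an end peak, and 13.3% with peaks shifted by 10000 bp. The 46 peaks numbered after the last Y chromosome peak were left out, as were 348 genes on other sequences. Peak numbers run to 32646, so 66.1% are listed.

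Peaks were assigned by an overlap of at least 1 bp. Strand and starts came from the RefSeq promoter table. Python 3.11.15, numpy 2.4.6, pandas 2.3.3 and scipy 1.17.1 were used; on simulated data 200 of 200 end peaks and 200 of 200 interior peaks were found. The genes and lists were chosen with earlier results of these data known. Named genes are the 10; of each list the 4 highest end peaks, the first 3 in alphabetical order without one and those with an interior peak at or above 17.9, the upper quartile of scores; and genes sharing a peak with the 10. Read depth is unknown, intervals cover counting error only, and no test was made. Planned protein comparisons were not run, and the microRNA genes of 1 list are not reported here. Alternatives were other windows and overlaps, higher-scoring peaks, merged peaks and all listed peaks.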

Additional observations from a re-analysis of the deposited data

How the results depend on the processing

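Counts and medians were recomputed under 8 other choices of peaks, window and overlap. With the peaks scoring at or above the median alone, an end peak was left at 4 of the 10 genes, a 5′ end peak at 3, an interior peak at 2, and 6 peaks in all, or 0.0717 interior peaks per 100 kb; the median end score became 18.5 and the end peaks of the other RNA-binding lists 34, among them 7 of hnRNP genes and 8 of cytoplasmic regulators, with 8 at genes with regulated exons. The 18.5 is higher because the lower-scoring peaks were removed. No such median was computed over all genes after that removal, so it cannot be set against the 17.1. Over all protein-coding genes, 55.4% had any end peak and 44.4% had one scoring that high, so the 4 of 10 was near the background. CG dinucleotides per 100 bases had a median of 5.67 in the full window and 8.67 in the 100 bases before and 50 after the start. The other values stayed within 1.5 times, but the count of genes with an end peak still changed. When the peak midpoint had to lie inside the window or gene, 7 of the 10 genes had an end peak and 7 an interior peak. The midpoints of the Ptbp2 and Rbfox2 peaks lay 1.46 and 1.81 kb inside the gene end, so both counted as interior. Genes with an end peak at or above the median score fell from 4 to 3, with Rbfox2 lost. With windows of 2 and 5 kb, all 10 genes had an end peak. The shares over all protein-coding genes were not computed for the other windows and overlaps, which can change them too. Nor were they computed for 5′ end or interior peaks among the higher-scoring peaks. One alternative, any start of the promoter table in place of the gene end, was chosen after seeing the data and gave 8 genes with a peak. No paired analysis was possible because each group had 1 library. The list is part of a longer one, so a gene without a listed peak may have had a peak there.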

Other observations

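Among the peaks used, numbers follow position along each chromosome. A number missing between neighbours therefore places a peak of the longer list in the gap between them. No number was missing from the peak before to the peak after Elavl3, Elavl4, Nova2 and Ptbp1, so no further peak numbered in this order lay there. Peaks numbered after the last Y chromosome peak, of which 46 are listed, cannot be placed in this way. For Rbfox1 none was missing inside the gene, and 3 fell in the 531 kb upstream of its end peak. At Rbfox3, 4 were missing in a gap of 314 kb, of which 303 kb lie in the gene and which takes in both its 3′ end and its start in the promoter table, so an unlisted peak at that start cannot be told apart from one elsewhere in the gap. For Elavl2, 3 fell in a gap of 1681 kb that holds 159 kb of the gene, and 3 in the 2960 kb upstream of its end peak. For Nova1 1 fell in 417 kb with 119 kb of the gene, and for Ptbp2 1 in 120 kb with 63.4 kb of the gene. Gaps beyond the end peak held 1 more at Ptbp2, in 108 kb with 0.38 kb of the gene. At Rbfox2 such a gap held 1, in 27.7 kb with 0.463 kb of the gene.

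The surroundings of the genes differed. The nearest listed peaks outside Elavl2 were 1522 and 2961 kb away, and 1.62% of gaps between neighbouring peaks of the list exceeded 1000 kb. Outside Nova1 they were 297 and 344 kb away, and 9.99% of gaps exceeded 250 kb; the median gap was 39.1 kb. Peaks stood close by at Nova2 (7.76, 4.01 kb upstream), Rbfox3 (8.65, 4.44 kb upstream) and Rbfox1 (6.86, 6.69 kb downstream). These distances were chosen after the values were seen and were not tested.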
